A study of Mus musculus with 9 samples.

Results

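The insulin-like growth factor (IGF) genes described here were the 9 listed by name, namely the ligands Igf1 and Igf2, the type 1 receptor Igf1r and the binding proteins Igfbp2, Igfbp3, Igfbp4, Igfbp5, Igfbp6 and Igfbp7. All 9 are in the table of 26214 genes, and all passed the filter on low values. They were followed in adipose stromal cells (ASCs) of mouse subcutaneous adipose tissue (ScAT) and in fibro-adipogenic progenitors (FAPs), the mesenchymal progenitors of skeletal muscle. RNA was sequenced on day 1 in wild-type C57Bl/6 mice, which were young adult males per the study's methods. ASCs (3 libraries) and FAPs of the quadriceps (2 libraries) came from NaCl-injected mice, and injured FAPs (3 libraries) from quadriceps injected with glycerol, which damages myofibers. A single library of CD31+CD45+ cells, sorted for an endothelial and a leukocyte surface protein, came from the glycerol-injected quadriceps and entered no test. The question was how the IGF genes of FAPs compared with those of ASCs and how they differed after injury. Triplicates were described as made from a pool of cells of 3 animals, so the p-values may measure only technical spread.

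IGF-1 and IGF-2 are secreted peptides that act through the receptor tyrosine kinase encoded by Igf1r, which signals through insulin receptor substrates to PI3K, Akt and mTOR. The binding proteins hold most extracellular IGF and either restrain or prolong its action, and proteases release the ligand by cleaving them. In muscle, IGF-1 is known for promoting satellite cell proliferation and myofiber growth. IGFBP-7 is the exception among the 6, since it binds IGFs only weakly.

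The 8 ASC, FAP and injured FAP libraries held 24052508 to 27481573 reads on genes and the CD31+CD45+ library 13091077. Normalized values are reads divided by a size factor per library, and 3 reads were worth 2.29 to 4.71. The 9 genes together took 0.64 to 0.76% of all values in ASCs, 1.03 and 1.13% in non-injured FAPs and 0.30 to 0.32% after injury. All 10 stromal markers, among them Pdgfra, Cd34 and Ly6a, were detected in every library. Both FAP libraries listed Vwf, Emcn, Cldn5 and Plvap of the endothelial list and 12 of 15 leukocyte genes at exactly 0. A 0 can stand for no counted reads or for a value set to 0 in processing, and the values cannot tell these apart. Whether these genes were truly absent is therefore not known, and these zeros enter the FAP marker sums and medians given below. None of the 9 IGF genes was listed at 0 in any library.

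The upstream sequences of 4 binding protein genes are shown because Igfbp4, Igfbp5 and Igfbp6 fell after injury while Igfbp2, which lies next to Igfbp5 on chromosome 1, rose. Igfbp2 (chr1:72824503-72852474, plus strand) and Igfbp5 (chr1:72857932-72874884, minus strand) lie tail to tail with 5457 bases between them in GRCm38 (mm10). Each sequence is the 250 bases before a RefSeq transcription start (for Igfbp2, the upstream one) on GRCm38.p6, 5′ to 3′ on the gene's strand, with motif matches in capitals. The windows are chr1:72874866-72875115 (minus strand) for Igfbp5, chr11:99040994-99041243 (plus) for Igfbp4, chr15:102143936-102144185 (plus) for Igfbp6 and chr1:72824230-72824479 (plus) for Igfbp2. The last 19 bases of the Igfbp5 window lie in an exon of the GENCODE annotation. For Igfbp6 the RefSeq start (102144186) lies upstream of the GENCODE gene start (102144362). The bases between these starts were not searched, so the Igfbp6 window may not be the one next to the start in use.
Igfbp5: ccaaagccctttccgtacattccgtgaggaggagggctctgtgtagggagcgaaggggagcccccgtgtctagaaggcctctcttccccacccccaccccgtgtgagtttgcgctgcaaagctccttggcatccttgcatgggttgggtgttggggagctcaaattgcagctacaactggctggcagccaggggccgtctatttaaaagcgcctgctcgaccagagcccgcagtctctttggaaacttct
Igfbp4: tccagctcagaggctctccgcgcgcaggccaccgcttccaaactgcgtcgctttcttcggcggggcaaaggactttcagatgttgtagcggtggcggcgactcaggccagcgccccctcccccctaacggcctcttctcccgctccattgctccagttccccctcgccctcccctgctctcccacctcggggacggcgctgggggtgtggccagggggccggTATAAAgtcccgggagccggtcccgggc
Igfbp6: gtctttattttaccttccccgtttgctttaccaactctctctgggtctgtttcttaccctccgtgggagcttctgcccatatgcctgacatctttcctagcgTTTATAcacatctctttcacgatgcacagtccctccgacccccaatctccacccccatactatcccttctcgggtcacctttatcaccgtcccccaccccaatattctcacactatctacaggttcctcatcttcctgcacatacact
Igfbp2: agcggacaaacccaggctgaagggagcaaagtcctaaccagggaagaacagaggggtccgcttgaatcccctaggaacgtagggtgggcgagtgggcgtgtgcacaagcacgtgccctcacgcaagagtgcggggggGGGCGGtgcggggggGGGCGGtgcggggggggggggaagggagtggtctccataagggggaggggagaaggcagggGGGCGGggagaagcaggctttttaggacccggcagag

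The motifs searched on both strands were the TATA box (TATAAA), the GC box (GGGCGG), the AP-1 site (TGANTCA) and the FOXO site (GTAAACA). Among 32851 RefSeq promoter windows of this length, 12.4% held TATAAA, 32.7% GGGCGG, 6.75% TGANTCA and 3.17% GTAAACA. Igfbp4 had TATAAA starting 28 bases before the transcription start. The match of Igfbp6 lay 148 bases before the start and on the other strand. Igfbp2 had GGGCGG at 113, 98 and 37 bases before the start, and none of the 4 motifs matched in the Igfbp5 window. RefSeq gives a second start for Igfbp2, whose window (chr1:72825137-72825386, not printed) had no GGGCGG and 1 match of TGANTCA 39 bases before the start. The 4 windows differed in GC content, which was 67.2% in Igfbp2, 69.2% in Igfbp4, 58.8% in Igfbp5 and 49.6% in Igfbp6. The printed windows of Igfbp4, Igfbp5 and Igfbp6 had no match of these motifs that Igfbp2 lacked, apart from TATAAA in Igfbp4 and Igfbp6. Igfbp7 and Igf1 also fell, and their windows are not printed. The Igfbp7 window had GGGCGG at 110, 96, 74 and 44 bases before the start, so this motif was not particular to the gene that rose. The Igf1 window had 1 match of TGANTCA 37 bases before the start. All 250 bases of this window lie in exons of the GENCODE annotation. The RefSeq start used (87861111) lies inside the GENCODE gene, which starts at 87858265, so the window is not upstream of the whole gene.

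Levels of different genes are compared as the normalized value per kb of annotated exon. Since exons of all transcripts of a gene were merged, genes with long alternative exons, such as Igf1, come out low on this scale. In ASCs the level per kb was highest for Igfbp6 at 33582 ± 5586 (SD, n = 3), followed by Igfbp5 at 21408 ± 4692 and Igfbp7 at 20385 ± 2921, which lay within their SDs of each other. Igfbp4 followed at 7915 ± 646, Igfbp3 at 1643 ± 745 and Igf1 at 1084 ± 87.1, the last pair also within their SDs. In FAPs, Igfbp7 at 26078 ± 753 (SD, n = 2), Igfbp5 at 25712 ± 3694 and Igfbp6 at 25457 ± 2893 per kb could not be ordered beyond their spread. The receptor Igf1r (58.7 ± 3.67 per kb) and Igf2 (122 ± 67.5) were low in FAPs, and Igfbp2 was the lowest of the 9 in all 3 groups.

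In injured FAPs Igfbp7 led with 11424 ± 340 per kb (SD, n = 3), ahead of Igfbp6 at 4608 ± 564 and Igfbp5 at 4395 ± 448, which lay within their SDs. Igfbp4 at 1888 ± 81.4, Igfbp3 at 956 ± 93.5 and Igf1 at 572 ± 50.4 came next. Igf1r stood at 86.1 ± 7.08, Igf2 at 63.3 ± 6.78 and Igfbp2 at 19.01 ± 7.59 per kb.

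**Figure D1:**
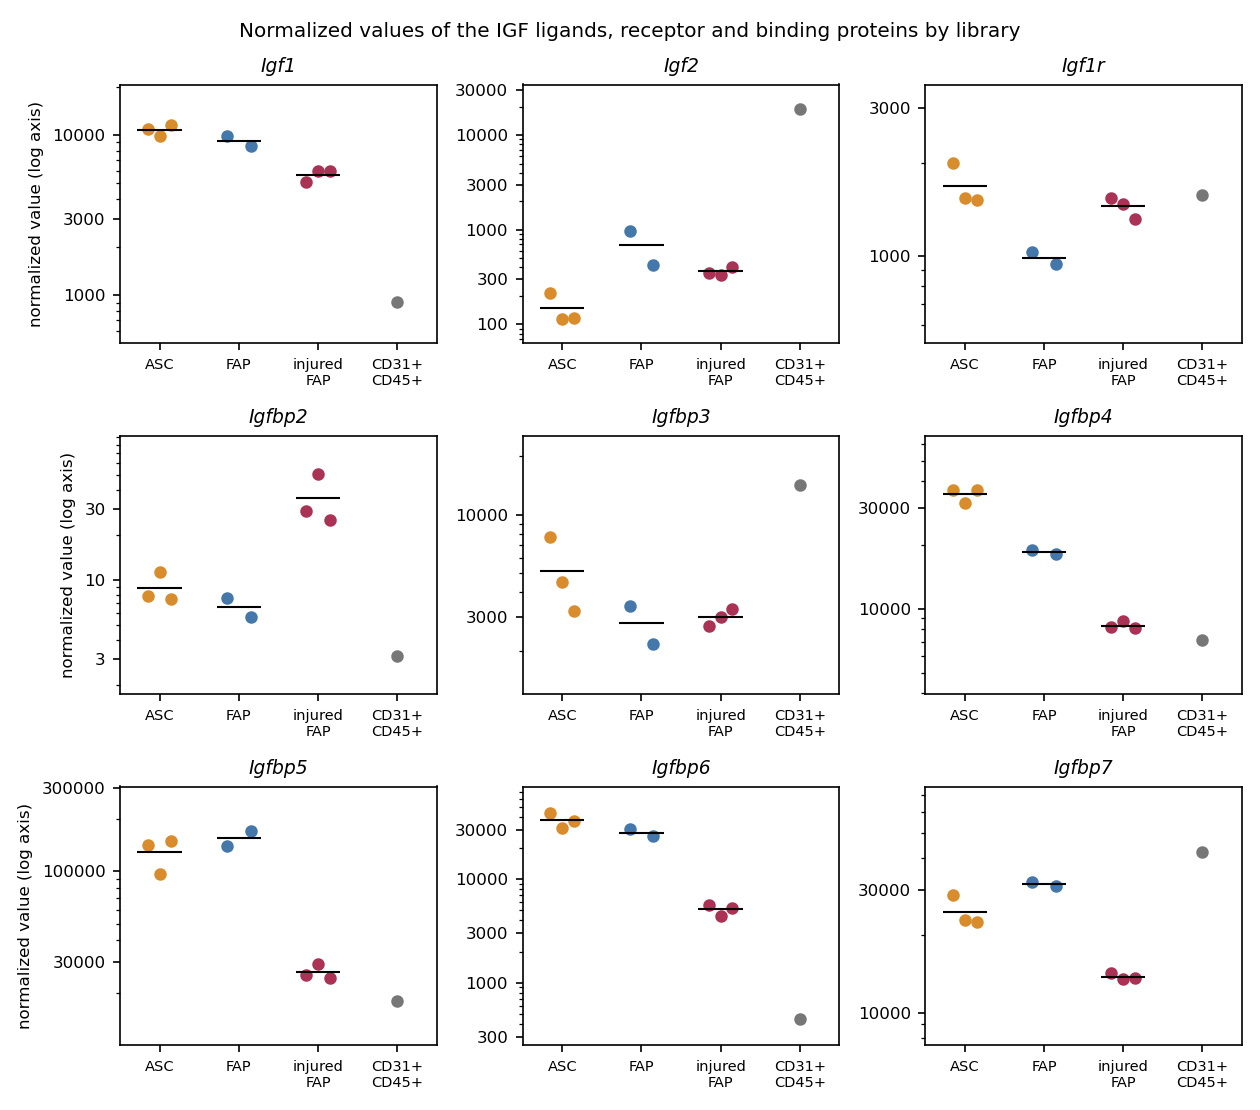
Normalized value (log axis, a separate range in each panel) of each of the 9 IGF genes in each library, with points for libraries and lines for group means. Igfbp4, Igfbp5, Igfbp6, Igfbp7 and Igf1 sat lower in all 3 injured FAP libraries than in both FAP libraries, Igfbp2 sat higher, and Igf2 reached 19012 in the CD31+CD45+ library.

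The plot of values by library shows the spread behind each comparison. A gene was called where limma gave an adjusted p under 0.05 together with a log2 fold change of more than 0.58, with Benjamini-Hochberg adjustment over 13601 genes and log2(value + 1) as the scale of all fold changes. The 3 comparisons share libraries and are therefore not independent of each other.

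After injury, FAPs held less RNA of Igf1 and of the 4 most abundant binding proteins. Igfbp4, Igfbp5, Igfbp6, Igfbp7 and Igf1 fell and Igfbp2 rose, so 6 of the 9 genes were called in injured FAPs against FAPs, beside 52.6% of all genes tested. The share of genes called lower was 27.7% over all genes and that called higher 24.9%, beside 5 and 1 of the 9. The median log2 fold change was -0.83 over the 9 and -0.05 over all genes. In sorted cell pools, fewer cells of a type and less RNA per cell cannot be told apart.

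Igf1 (chr10:87858265-87937042), whose product is the main IGF of adult tissues, had values of 9821 and 8567 in FAPs and of 5094, 5978 and 5938 in injured FAPs. Every injured FAP library was below both FAP libraries. Igf1 fell by 0.70 on the log2 scale (SE 0.12, adjusted p = 0.000474), a mean 1.62 times lower. With values scaled to total reads the change was -0.57 and just missed the fold threshold.

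Igf2 (chr7:142650766-142666816), the imprinted growth factor of fetal tissues, had 970 and 423 in FAPs and 351, 331 and 406 in injured FAPs. The groups did not overlap, but the first FAP library lay far above the other. The log2 fold change of -0.83 (SE 0.34) was not called, with an adjusted p of 0.0551 by limma. It was -0.23 without FAP replicate 1 and -1.42, and called, without FAP replicate 2. It was called in 9 of 20 alternative settings, among them edgeR (-0.90, adjusted p = 0.0295) and DESeq2 (-0.92, adjusted p = 0.0126). Reads of Igf2 cannot be separated from those of the overlapping antisense gene Igf2os unless strand was used in counting, and Igf2os had a mean of 1.47 over the 8 libraries.

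Igf1r (chr7:67952827-68233668), the receptor for both ligands, stood at 1030 and 943 in FAPs and at 1546, 1478 and 1315 in injured FAPs. All injured FAP libraries were above the FAP libraries. The log2 fold change was 0.55 (SE 0.14, adjusted p = 0.00478), which lies under the fold threshold, and it passed under 5 of 20 alternative settings.

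Igfbp5, a binding protein that attaches to extracellular matrix, was the most abundant of the 9 by normalized value. It had 138738 and 170118 in FAPs and 25492, 29424 and 24271 in injured FAPs. Its mean was 5.85 times lower after injury, a log2 fold change of -2.55 (SE 0.21, adjusted p = 3.45e-06), and the groups lay far apart. Igfbp6 (chr15:102144362-102149511), which prefers IGF-2 over IGF-1, had 30583 and 26034 in FAPs and 5687, 4448 and 5237 in injured FAPs. It fell by 2.47 on the log2 scale (SE 0.16, adjusted p = 1.02e-06), a mean 5.52 times lower. These were the largest falls among the 9 genes in this comparison.

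Igfbp4 (chr11:99041244-99054392), an inhibitor of IGF action that is cleaved by pappalysins, fell about as much as Igfbp7. Its values were 18956 and 18207 in FAPs and 8181, 8749 and 8082 in injured FAPs, a log2 fold change of -1.16 (SE 0.11, adjusted p = 9.45e-06). Igfbp7 (chr5:77349240-77408041) had 32173 and 30884 in FAPs and 14271, 13481 and 13683 in injured FAPs, a log2 fold change of -1.19 (SE 0.13, adjusted p = 2.18e-05). The libraries of each group lay close together for both genes. Igfbp7 overlaps Polr2b, an RNA polymerase II subunit gene on the opposite strand, whose mean value of 1203 was small beside that of Igfbp7.

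Igfbp2, a binding protein linked to growth restraint and metabolism, was the one member that rose after injury. Its values were 7.61 and 5.64 in FAPs, from 8 and 6 reads, and 29.0, 51.1 and 25.2 in injured FAPs, from 37, 66 and 33 reads. The log2 fold change was 2.19 (SE 0.43, adjusted p = 0.00129), and the mean was 5.30 times higher, but the gene remained the least abundant of the 9. Injured FAP replicate 2, the highest for Igfbp2, also held the most leukocyte RNA, with a summed value of 4010 over the 15 leukocyte genes against 897 and 789 in the other injured FAP libraries and 265 and 497 in FAPs. Without that library the log2 fold change was 1.89, which was called. The CD31+CD45+ library held 2 Igfbp2 reads, a value of 3.14. The part of leukocyte RNA in the rise of Igfbp2 was not tested.

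Igfbp3 (chr11:7206086-7213923), the main IGF carrier of serum, did not pass in this comparison. It had 3408 and 2168 in FAPs and 2705, 2981 and 3290 in injured FAPs, and the injured libraries lay between the FAP libraries. The log2 fold change was 0.13, with a 95% interval from -0.55 to 0.82 and an adjusted p of 0.718 by limma.

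Most other cell type lists also summed lower after injury, while the leukocyte list summed higher, at 789 to 4010 against 265 and 497 in FAPs. The summed value of the 10 smooth muscle and pericyte genes was 26106 and 22758 in FAPs against 10528 to 11074 in injured FAPs, and that of the 4 tendon cell genes was 11303 and 14639 against 5713 to 6844 in the same order. In ASCs the same lists summed to 3542 to 5590 and to 175 to 261, while Igfbp5 and Igfbp6 were at 96282 to 148158 and 31390 to 43785. The summed stromal list, which is dominated by collagen genes, was also lower in injured FAPs (869528 to 957841) than in FAPs (2003820 and 2202150). Within this list Ly6a was higher after injury, at 21308 to 24855 against 16542 and 10823 in FAPs. Pdgfra was higher too, at 23236 to 25268 against 17754.2 and 17756.5. Thy1 overlapped between the groups, and the other stromal genes were lower after injury. The part of these shifts in the results for the binding proteins was not tested. The endothelial list is given below. The remaining lists summed in FAPs and injured FAPs to 821 and 964 against 232 to 293 for skeletal muscle fibre. For satellite cells the sums were 293 and 428 against 237 to 293, mostly from Chodl (219 and 274 against 174 to 224). Within that list Myod1 and Chrna1 were higher after injury, Pax7, Myf5 and Calcr were lower, and Cdh15 and Chodl overlapped. Schwann cell genes summed to 1089 and 1893 against 444 to 733, and adipocyte genes to 60.9 and 68.7 against 3.81 to 26.3.

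**Figure D2:**
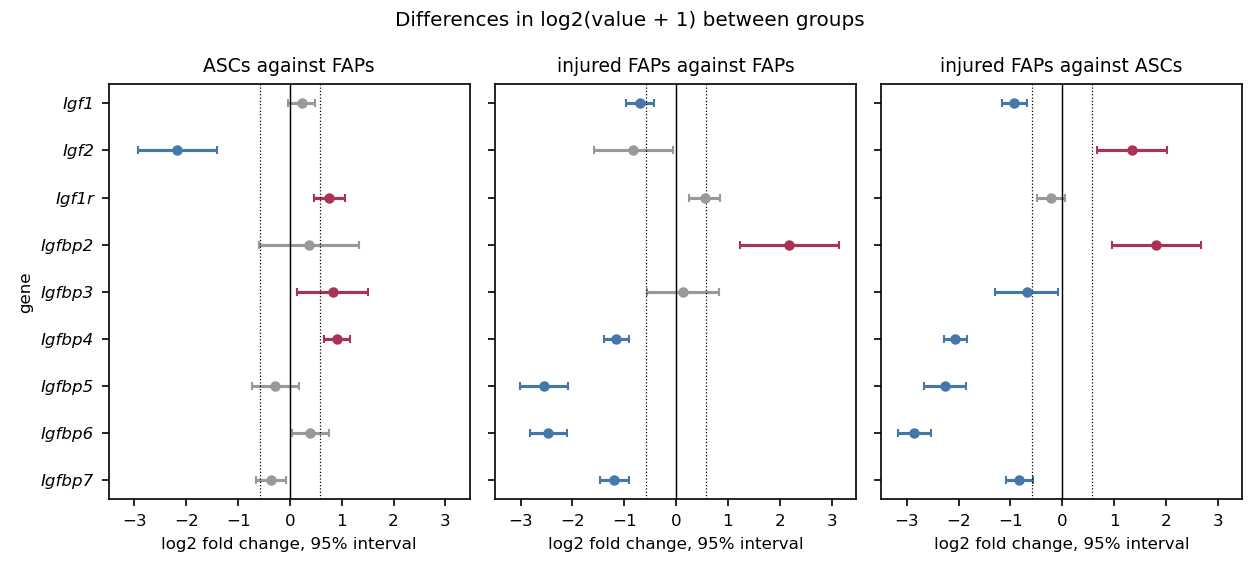
Log2 fold changes of the 9 IGF genes in the 3 comparisons on the log2(value + 1) scale, with 95% intervals from limma, dotted lines at the fold threshold of 0.58, red for called higher, blue for called lower and grey for not called. Igfbp5 and Igfbp6 lay beyond -2 in both comparisons of injured FAPs, and Igf2 lay at -2.17 in ASCs against FAPs.

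The plot of fold changes sets the 3 comparisons side by side. In ASCs against non-injured FAPs the share of the 9 genes called was near that of all genes. Igf1r, Igfbp3 and Igfbp4 were higher and Igf2 was lower in ASCs, which made 4 of 9 called beside 47.2% of all genes (23.4% higher and 23.8% lower).

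Igf2 had 212, 114 and 117 in ASCs, all below the FAP values of 970 and 423. The difference was -2.17 on the log2 scale (SE 0.34, adjusted p = 0.000363), and it was called without either FAP library, at -1.57 without FAP replicate 1 and at -2.77 without FAP replicate 2. Igf1 was at 10922, 9796 and 11490 in ASCs, where its range overlapped that of FAPs, and its log2 fold change of 0.22 was not called, with a 95% interval from -0.04 to 0.49. It turned to -0.45 after quantile normalization. On the per kb scale, Igf1 made up 96.7 to 98.3% of the summed ligand RNA in ASCs, 85.4 and 92.1% in non-injured FAPs and 89.4 to 91.3% after injury.

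Igfbp4 was at 36588, 31658 and 36612 in ASCs, above both FAP libraries, with a log2 fold change of 0.91 (SE 0.11, adjusted p = 6.00e-05). This call depended on the scaling, since the difference was 0.03 after quantile normalization and 0.34 with values scaled to total reads. Igf1r at 1992, 1539 and 1522 in ASCs was also above both FAP libraries, by 0.76 on the log2 scale (SE 0.14, adjusted p = 0.000771). It fell under the fold threshold in all 3 alternative scalings, at 0.53, 0.55 and 0.19.

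Igfbp3 had the widest spread among ASCs, at 7728, 4495 and 3202, and overlapped the FAPs. Its log2 fold change of 0.82 (SE 0.31, adjusted p = 0.0398) was called but fell to 0.48, and was not called, without ASC replicate 1, and the call was lost in 11 of 20 alternatives. Igfbp5 at 141287, 96282 and 148158, Igfbp6 at 43785, 31390 and 36853, and Igfbp7 at 28714, 22835 and 22386 in ASCs were not called against FAPs, with log2 fold changes of -0.28, 0.39 and -0.36. That of Igfbp6 turned to -0.39 after quantile normalization. Igfbp2 at 7.90, 11.3 and 7.53, from 6, 10 and 6 reads, was not called either (log2 fold change 0.37).

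Injured FAPs differed from ASCs at 8 of the 9 genes, beside 50.8% of all genes. Igf2 and Igfbp2 were higher (25% of all genes were) and Igf1, Igfbp3, Igfbp4, Igfbp5, Igfbp6 and Igfbp7 were lower (25.8% were). Igfbp6 differed by -2.86 (SE 0.14, adjusted p = 1.05e-07), Igfbp5 by -2.26 (SE 0.18, adjusted p = 2.39e-06) and Igfbp4 by -2.07 (SE 0.10, adjusted p = 7.63e-08) on the log2 scale. For these 3 genes no injured FAP library came near an ASC library.

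Igf2 was 1.35 higher on the log2 scale in injured FAPs than in ASCs (SE 0.31, adjusted p = 0.00291) and Igfbp2 was 1.82 higher (SE 0.39, adjusted p = 0.00191). Igf1 differed by -0.92 (SE 0.11, adjusted p = 2.76e-05) and Igfbp7 by -0.83 (SE 0.11, adjusted p = 0.000107), and both calls were lost after quantile normalization and with values scaled to total reads. Igfbp3 differed by -0.69 (SE 0.28, adjusted p = 0.0472), with overlapping groups, and its call was lost in 9 of 20 alternatives, among them the one without ASC replicate 1 (-0.35). Igf1r was not called, at -0.21 with a 95% interval from -0.48 to 0.06.

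Shares of the 6 binding proteins, computed per kb within each library, do not depend on the size factors. In FAPs, Igfbp7 took 31.7% ± 0.78 (SD, n = 2), Igfbp5 31.2% ± 4.62 and Igfbp6 30.9% ± 3.38. In injured FAPs Igfbp7 took 49.0% ± 0.52 (SD, n = 3), Igfbp6 19.8% ± 2.11 and Igfbp5 18.9% ± 2.09. In ASCs the largest share was that of Igfbp6, at 39.5% ± 0.87, with Igfbp5 at 25.1% ± 3.33 and Igfbp7 at 24.11% ± 2.36. Igfbp4 took 9.39% ± 0.78 in ASCs, 5.11% ± 0.12 in non-injured FAPs and 8.11% ± 0.45 after injury, Igfbp3 1.91%, 1.08% and 4.11%, and Igfbp2 under 0.1% in each group. Without division by length Igfbp5 led in all 3 groups, with 55.4%, 65.4% and 46.5%.

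**Figure D3:**
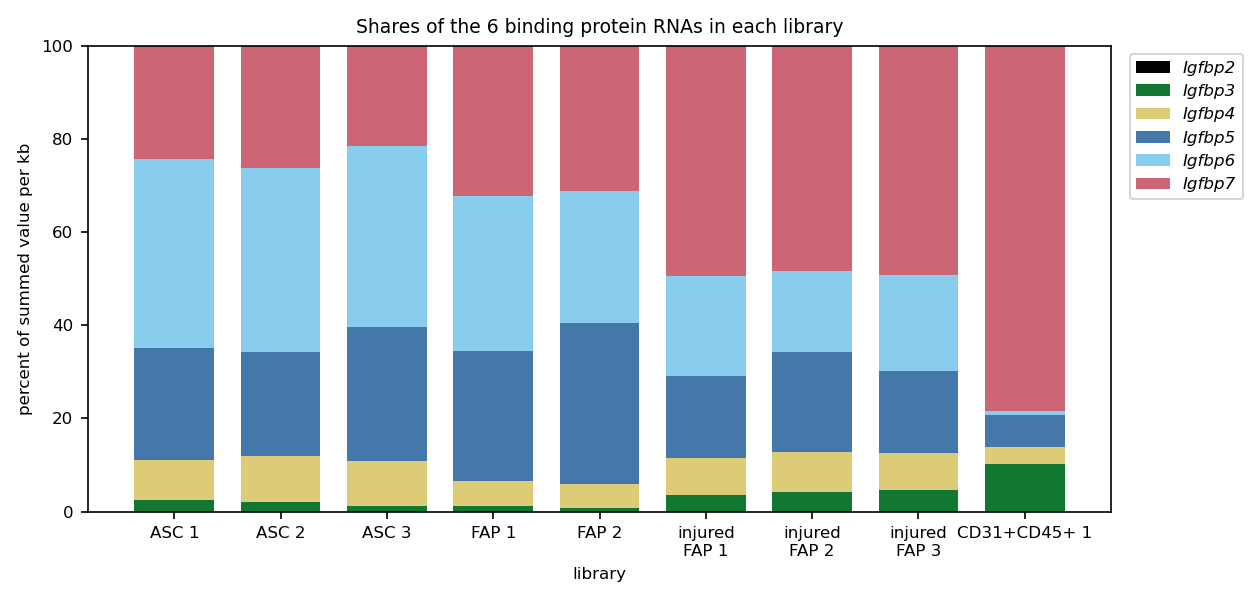
Percent of the summed normalized value per kb taken by each of the 6 binding protein RNAs in each of the 9 libraries, as stacked bars. Igfbp7 took 49.0% on average in injured FAPs and 78.4% in the CD31+CD45+ library, against 31.7% in FAPs and 24.11% in ASCs.

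The stacked shares show Igfbp7 as the largest part in every injured FAP library, while Igfbp5 and Igfbp6 traded places between them. The binding proteins summed to 84936 ± 12840 per kb in ASCs, 82349 ± 353 in non-injured FAPs and 23290 ± 525 after injury. Ligand RNA summed to 1110 ± 89.6, 1050 ± 157 and 636 ± 52.4 per kb. The ratio of binding protein to ligand RNA was 71.1 to 85.5 in ASCs, 71.1 and 87.4 in non-injured FAPs and 34.3 to 41.5 after injury. ASCs and FAPs overlapped in this ratio, and all 3 injured FAP libraries lay below both. These are ratios of RNA and say nothing of protein or of bound ligand. They count Igfbp7, which binds IGFs only weakly, like the other binding proteins. The merged exons of Igf1 make the ligand side low, so the ratios depend on this scale.

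In the CD31+CD45+ library Igf2 was at 19012, 19.6 times the highest of the other 8 libraries, Igfbp3 at 14173, 1.83 times the highest, and Igfbp7 at 41915, 1.30 times the highest. Igf1 at 906, Igfbp6 at 450, Igfbp5 at 18069 and Igfbp4 at 7122 were below the lowest of the 8, and Igf1r was at 1576. Igf2 in percent of the CD31+CD45+ value was 0.60 to 1.12% in ASCs, 2.23 and 5.10% in non-injured FAPs and 1.74 to 2.13% after injury. The median over the 14 endothelial genes was 0.086 to 0.187% in ASCs, 0.871 and 1.36% in non-injured FAPs and 0.414 to 0.649% after injury. Both were lowest in ASCs and highest in FAP replicate 1, and Igf2 was above the endothelial median in every library. The FAP medians include the 4 and 5 endothelial genes listed at 0 in FAP replicates 1 and 2, which lower them. The smooth muscle and pericyte median was also lowest in ASCs and highest in FAP replicate 1. It was 1.40 to 4.34% in ASCs, 30.9 and 25.5% in non-injured FAPs and 5.87 to 6.22% after injury. The leukocyte median was 0.194 to 0.684% in ASCs, 0 in both FAP libraries and 2.13 to 16.3% after injury. The endothelial list summed to 5936 to 7771 in ASCs, 7477 and 5260 in non-injured FAPs and 2045 to 2588 after injury, against 400308 in CD31+CD45+ cells. Most of the ASC sums came from Tek, the angiopoietin receptor, at 4841 to 6700, whereas Cdh5, the VE-cadherin gene, was at 59.0 to 123 in ASCs and at 1438 and 686 in FAPs. The CD31+CD45+ library also held smooth muscle and pericyte genes, summing to 99526.5, and leukocyte genes, summing to 36906.5. The part of endothelial or other cell type RNA in the Igf2 differences was not tested.

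**Figure D4:**
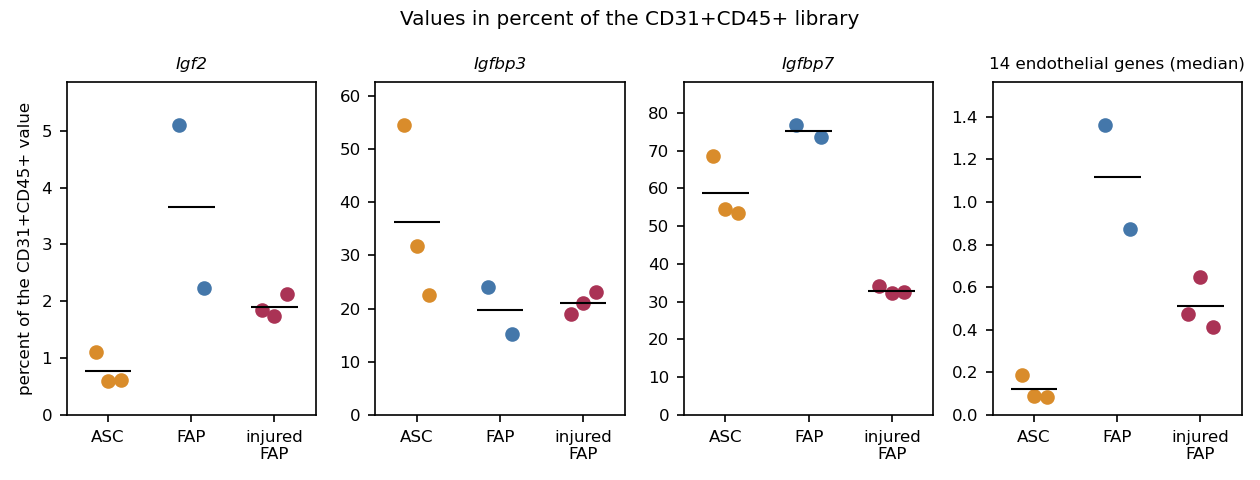
Values of Igf2, Igfbp3, Igfbp7 and the median over 14 endothelial genes in the ASC, FAP and injured FAP libraries, in percent of the value in the CD31+CD45+ library, with points for libraries and lines for means. Igf2 stayed at or under 5.10%, whereas Igfbp7 reached 76.8% in FAPs.

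As the plot in percent of the CD31+CD45+ value shows, Igfbp7 was at 53.4 to 68.5% in ASCs, 73.7 and 76.8% in non-injured FAPs and 32.2 to 34.0% after injury, so its level in stromal cells was of the same order as in CD31+CD45+ cells. Igfbp3 was at 15.3 to 54.5% over the 8 libraries, with no separation of the groups.

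Of 45 other genes of the IGF pathway, 39 were tested. In injured FAPs against FAPs 9 were higher and 11 lower, in ASCs against FAPs 11 were higher and 7 lower, and in injured FAPs against ASCs 8 were higher and 17 lower. Over all genes 52.6%, 47.2% and 50.8% were called in these comparisons, and the first 2 counts lie near those shares. The median log2 fold changes were 0.01, 0.10 and -0.46, beside -0.05, 0.005 and 0.02 over all genes.

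Among the IGFBP proteases and stanniocalcins, Adam12 changed most. This metalloproteinase, which can cleave IGFBP-3 and IGFBP-5, rose from a mean of 379 in FAPs to 12993 in injured FAPs, a log2 fold change of 5.15 (SE 0.22, adjusted p = 1.99e-07), and it stood at 2938 in ASCs. Pappa2, a pappalysin that cleaves IGFBP-3 and IGFBP-5, fell from 4966 to 1011 (log2 fold change -2.30), and Pappa, which cleaves IGFBP-4, fell from 624 to 311 (-0.98). Stc1, a stanniocalcin that inhibits pappalysins, rose from 84.7 to 200 (1.23), whereas the other stanniocalcin, Stc2, fell from 91.3 to 26.9 (-1.76). Stc2 has a mean under 100 and was named after its values were seen. Htra1, a serine protease, was at 7435 and 5402 and was not called (-0.46). In ASCs against FAPs Pappa (-2.53) and Pappa2 (-1.24) were lower and Htra1 (1.20) and Adam12 (2.98) were higher, so both pappalysins were highest in FAPs.

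Of the 22 adaptors and PI3K-Akt-mTOR genes tested, 4 rose and 6 fell in injured FAPs against FAPs, where 24.9% of all genes were higher and 27.7% lower. Irs1 fell (log2 fold change -1.57, mean 2230 to 752) and Irs2 rose (0.72, 4920 to 8141), both being substrates of the IGF-1 and insulin receptors. The PI3K regulatory subunits Pik3r1 (-1.58) and Pik3r2 (-1.72) and the transcription factors Foxo1 (-1.43) and Foxo3 (-0.77) fell, and the kinase Akt1 (0.63) and the translation repressor Eif4ebp1 (0.85) rose. Tsc1 (-0.45) and Rheb (0.54) were not called. In ASCs against FAPs, Irs2 (1.78) and Rheb (1.00) were higher and Pik3r1 (-1.08) and Pik3r2 (-0.69) lower.

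On the growth hormone side, which drives Igf1 transcription in liver, the receptor Ghr fell in injured FAPs against FAPs (log2 fold change -0.84), whereas Jak2 (1.44) and Stat5a (1.04) rose. Stat5b (-0.43), Socs2 (0.38) and Cish (0.18) were not called. ASCs had more Ghr (1.43), Jak2 (2.03), Stat5a (1.65) and Cish (3.04) RNA than FAPs, with 4 of 6 genes higher beside 23.4% of all genes. The insulin receptor Insr was higher in ASCs than in FAPs (0.70) and not called after injury (-0.50), and Igf2r, the clearance receptor for IGF-2, was called in none of the 3 comparisons, with log2 fold changes of -0.16, 0.05 and 0.20, and is given here after its values were seen.

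H19, the imprinted neighbour of Igf2, was lower in ASCs than in FAPs (log2 fold change -1.73, mean 572 against 1904), as Igf2 was. In injured FAPs against FAPs it was at 0.36 and not called, where Igf2 was at -0.83. In the CD31+CD45+ library H19 was at 422, below its mean in each of the other groups, where Igf2 was at its highest. Igf2bp2, which encodes a protein that binds Igf2 mRNA, was higher in ASCs (2.53) and injured FAPs (1.75) than in FAPs.

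**Figure D5:**
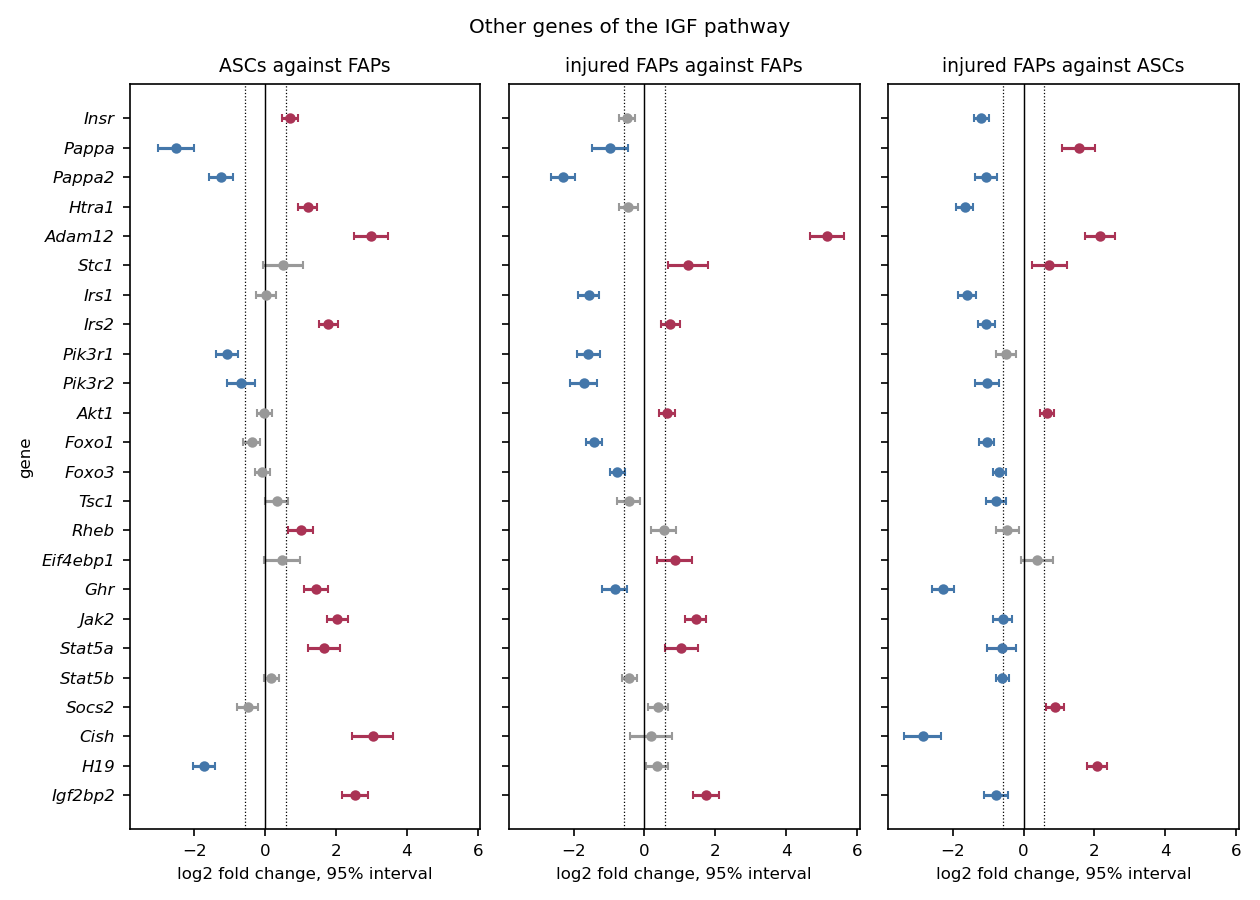
Log2 fold changes of the named genes of the IGF pathway in the 3 comparisons, with 95% intervals from limma, dotted lines at 0.58, red for called higher, blue for called lower and grey for not called. Adam12 reached 5.15 in injured FAPs against FAPs, and Pappa2, Irs1, Pik3r1, Pik3r2 and Foxo1 lay beyond -1.

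The plot of pathway genes shows rises and falls side by side within the proteases, the adaptors and the growth hormone side. Patterns over the 8 libraries were compared by the root mean square difference of log2 values centred on each gene's mean, as a description. Among 10592 other genes with a mean of at least 100 (10593 for Igfbp2), the nearest were Ercc5 for Igf1 (0.06), Sorcs2 for Igf2 (0.33), Il6st for Igf1r (0.06), Anp32b for Igfbp2 (0.30) and Mtmr10 for Igfbp3 (0.15). For Igfbp4, Igfbp5, Igfbp6 and Igfbp7 they were Col1a2 (0.08), Mturn (0.12), Ctsf (0.10) and Fuz (0.05). Among the 9 themselves, Igf1 and Igfbp7 were nearest (0.28), and Igfbp5 and Igfbp6 were 0.38 apart.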

How the data were processed

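RNA of sorted cells was measured in 9 libraries, namely 3 of ASCs, 2 of FAPs, 3 of injured FAPs and 1 of CD31+CD45+ cells. The authors filtered the reads, checked them with FastQC, aligned them with HISAT2 to mm10, obtained gene counts from featureCounts (Subread) and used DESeq2. The deposited signal values are whole reads over a size factor for 100% of values (tolerance 0.01 reads). How they were scaled and the strand setting are not given in the sources used here. The table has 2 empty columns.

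Groups came from the labels. Limma 3.58.1 (R 4.3.3) was fitted to log2(value + 1) with a mean per group over 8 libraries and a trend in the prior variance, on the 13601 genes whose mean reached 10 (5 residual degrees of freedom). The threshold was an adjusted p of 0.05 and a log2 fold change of 0.58. Alternatives changed the pseudocount, filter, scaling, p, groups, replicate number and tool (edgeR 4.0.16 and DESeq2 1.42.0 on the recovered reads) and left out each library. The scripts were tested on simulated data. Coordinates and exon lengths came from GENCODE M21 (GRCm38) and promoters from RefSeq GRCm38.p6. The read number limits precision for low genes such as Igfbp2.

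The 9 members, the pathway and marker lists and the tests were chosen with earlier results of these data known. Named beside the members were pathway genes called in at least 1 comparison with a mean of at least 100, up to 25 by mean, marker genes, and the gene nearest to each member in pattern. A pathway gene that this rule would name is not reported here, but list counts and medians include it.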

Additional observations from a re-analysis of the deposited data

Results flagged for a closer look

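The CD31+CD45+ library entered no test and has no replicate. It held more RNA of 3 IGF genes than any of the other 8 libraries. Igf2 was at 19012 there, Igfbp3 at 14173.5 and Igfbp7 at 41914.6 in normalized values, against highest values of 970, 7728 and 32173 in the other libraries.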

How the results depend on the processing

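Over 20 alternative settings, 482 of 537 values of single IGF genes kept their direction and side of the threshold. Of the rest, 29 lost a call, 18 gained one and 8 turned their direction. Some settings could not change a direction, among them the unadjusted p, the filters and leaving out a library of the group not compared. With values scaled to total reads, a setting chosen after seeing the data, Igfbp3 (called without it) turned to 0.0091 and Igf1r to 0.49 in injured FAPs against ASCs, and Igf1 to -0.34, Igfbp2 to -0.13 and Igfbp6 to -0.18 in ASCs against FAPs. After quantile normalization Igf1 turned to -0.45 and Igfbp6 to -0.39 in ASCs against FAPs, and without FAP replicate 2 Igfbp3 turned to -0.19 in injured FAPs against FAPs, with a range of -0.19 to 0.46 when single libraries were left out. The other 7 were called neither in the main setting nor in the alternative. In injured FAPs against FAPs Igfbp4, Igfbp5, Igfbp6 and Igfbp7 kept their calls in all 20 settings and Igfbp2 in the 19 that tested it. The number of IGF genes called in ASCs against FAPs went from 4 to 2 with a common 75th percentile. In injured FAPs against ASCs it went from 8 to 5 after quantile normalization and to 5 with scaling to total reads. The cause was not tested. Igfbp5 and Igfbp7 were called lower in ASCs than in FAPs after quantile normalization (-1.19 and -1.08) and with scaling to total reads (-0.85 and -0.93). Scaling to total reads moved the median log2 fold change of all genes to -0.56 in ASCs against FAPs, 0.08 in injured FAPs against FAPs and 0.72 in injured FAPs against ASCs, and the 75th percentile moved it to -0.20, -0.15 and 0.13. The percent of calls that were higher went from 49.6 to 37.2 (75th percentile) and 19.8 (total reads) in ASCs against FAPs, and from 49.3 to 81.7 (total reads) in injured FAPs against ASCs. Without 1 library at a time, 3 to 4 IGF genes were called in ASCs against FAPs, 6 to 7 between injured and non-injured FAPs, and 7 to 8 in injured FAPs against ASCs.

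Same-numbered libraries did not deviate together (correlations from -0.054 to 0.045). With means of only 2 or 3 libraries per group, this cannot exclude that the numbers pair the samples. With a replicate block the IGF genes called were 4, 8 and 8 in the same order, against 4, 6 and 8 without it, and Igf2 (-0.80) and Igf1r (0.62) were the additional ones after injury. Pathway genes called were 19, 19 and 24 with the block and 18, 20 and 25 without it. Counts of reads limit Igfbp2, with at most 10 reads in any ASC or FAP library.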
